A study of Mus musculus and Homo sapiens with 56 samples.

Results

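The D395A intronic m6A peaks are regions of chromatin-associated RNA that an antibody against N6-methyladenosine (m6A) enriched over input in mouse embryonic stem cells carrying METTL3 D395A. A peak was taken when its summit, the base of highest signal, lay inside the span of a gene of the deposited count table but in no exon of any gene there. Of 38823 peaks in the D395A list, 26131 (67.3%) met this rule, out of 87268 peaks in both mouse lists. The summits of 7033 further D395A peaks lay in exons and those of 5659 outside genes.

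The cells were the line E14TG2a, untreated and wild type (WT), and a line of the same study labelled D395A, named for an aspartate-to-alanine substitution in METTL3. Both were untreated, and the culture described for E14TG2a held LIF and inhibitors of MEK and GSK3β. The D395A peak list stands for 1 immunoprecipitated and 1 input library, so the peaks have no replicate check, while the WT list stands for 2 and 2. RNA-seq after removal of ribosomal RNA gave 2 libraries of each genotype, with 12743677 to 19246342 counts. Whether these came from separate cultures, and whether the D395A line is a single clone, is not stated, so p-values measure only the spread between libraries.

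METTL3 is the catalytic subunit of the complex that deposits most m6A on messenger RNA, together with METTL14, and the substitution lies in its catalytic centre. The complex can act while a gene is being transcribed, so chromatin-associated RNA, which is rich in unspliced transcripts, carries m6A in introns as well as in exons. Readers such as YTHDC1 bind the mark in the nucleus, and the study set it beside H3K9me2, a repressive histone mark that demethylases such as KDM3A and KDM3B remove.

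The count of the substituted gene does not check the labels, because a single substitution leaves the transcript in place. Mettl3 RNA was 36.2 and 35.5 CPM (counts scaled to library size) in WT against 30.6 and 33.9 CPM in D395A, and the difference did not pass the edgeR test (log2 fold change -0.15 ± 0.08 SE, Benjamini-Hochberg adjusted p 0.114). The 8 embryonic stem cell markers were all present, with 17.6 to 183 RPKM (CPM per kb of exon) in D395A. Their summed level was 1851 and 1803 RPKM in WT and 827 and 773 RPKM in D395A. Among these markers Dppa5a fell from a mean of 506 to 123 RPKM (log2 fold change -2.05, adjusted p 3.26e-11, edgeR). Sox2 alone did not pass the test (-0.09, adjusted p 0.300, edgeR). All the others fell, Tdgf1 the most (-3.02, adjusted p 3.25e-13). Of 8 fibroblast or feeder markers, 7 were below 1 RPKM in D395A, and their summed level was at most 5.05 RPKM in any library. Mesoderm markers summed to 12.7 and 10.8 RPKM in WT and to 1.19 and 1.28 RPKM in D395A. Endoderm markers summed to 2.98 and 2.72 RPKM in WT and to 12.6 and 13.3 RPKM in D395A, but their members differed. Foxa2 rose from a mean of 0.113 to 11.7 RPKM (log2 fold change 6.76, adjusted p 4.29e-12, edgeR) and Gata4 fell from 2.07 to 0.423 RPKM (-2.26, adjusted p 2.86e-07). Gata6 and Sox17 did not pass the test (0.42 and 0.09, adjusted p 0.279 and 0.841), and Afp and Ttr were at 0 counts in every library. Neuroectoderm markers summed to 27.8 and 25.3 RPKM in WT and to 20.8 and 20.6 RPKM in D395A. Only Tubb3 among them fell, from 22.3 to 12.1 RPKM (-0.87, adjusted p 2.64e-07, edgeR). Pax6 rose from 0.0320 to 1.33 RPKM (5.35, adjusted p 6.69e-11). Neurod1, Map2, Nes and Sox1 rose as well (1.05, 0.89, 0.85 and 0.66, adjusted p 0.0121, 7.98e-05, 1.64e-05 and 0.00502). Trophectoderm markers summed to 32.6 and 31.9 RPKM in WT and to 38.1 and 35.6 RPKM in D395A. Of these, Cdx2 rose (2.12, adjusted p 2.53e-05, edgeR) and only Eomes fell (-2.75, adjusted p 2.82e-09). Krt18 and Tfap2c rose too (1.04 and 0.40, adjusted p 0.000109 and 0.000126). Krt8 did not pass (-0.17, adjusted p 0.161), and Elf5 was too low to be tested. The part of such cell-state differences in the peak list was not tested.

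Sequence was at hand for members that lie at an annotated start site or over a microRNA. Of the members, 77 (0.295%) had their summit in a RefSeq promoter window of 300 bases (GRCm38.p6) and 40 of these in a window of their own host gene. The sequences below were chosen after the values were seen, as strongly enriched examples and, for Kdm3a, for the histone demethylase it encodes. Capitals mark GGACT, a frequent form of the m6A consensus, or its reverse complement AGTCC. The match in the Kdm3a window is AGTCC, so there GGACT lies on the strand opposite to the gene. The Kdm3a window is chr6:71632637-71632936 on the minus strand, the Ncor1 window chr11:62438466-62438765 on the minus strand, and the Tnrc6b window chr15:80798360-80798659 on the plus strand.
Kdm3a: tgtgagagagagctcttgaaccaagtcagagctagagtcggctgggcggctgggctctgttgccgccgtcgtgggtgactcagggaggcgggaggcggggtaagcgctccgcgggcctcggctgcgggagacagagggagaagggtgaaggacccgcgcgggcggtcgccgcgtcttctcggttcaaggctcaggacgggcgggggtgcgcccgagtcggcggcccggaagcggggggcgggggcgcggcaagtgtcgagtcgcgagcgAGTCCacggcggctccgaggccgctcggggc
Ncor1: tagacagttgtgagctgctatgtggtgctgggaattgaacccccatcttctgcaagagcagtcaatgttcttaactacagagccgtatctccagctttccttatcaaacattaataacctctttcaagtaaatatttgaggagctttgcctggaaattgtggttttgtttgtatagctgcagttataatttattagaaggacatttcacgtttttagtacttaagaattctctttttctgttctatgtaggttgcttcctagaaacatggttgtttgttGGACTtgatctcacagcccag
Tnrc6b: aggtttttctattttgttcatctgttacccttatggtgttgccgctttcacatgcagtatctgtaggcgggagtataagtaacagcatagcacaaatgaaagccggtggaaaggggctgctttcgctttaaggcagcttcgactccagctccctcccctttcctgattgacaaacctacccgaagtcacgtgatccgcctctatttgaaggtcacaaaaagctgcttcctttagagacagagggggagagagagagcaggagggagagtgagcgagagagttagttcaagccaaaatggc
The Kdm3a peak was enriched 4.74-fold, with its summit 133 bases before that start site, and overlapped no WT peak. In Ncor1, which encodes a nuclear receptor corepressor, the peak was enriched 6.24-fold with its summit 44 bases before the start. In Tnrc6b, which encodes a partner of Argonaute in microRNA silencing, it was enriched 7.26-fold with its summit 42 bases after the start. GGACT on either strand was present in 32 of the 83 windows that hold such a summit (38.6%) and in 45.5% of all 32851 windows of the same length, a lower share. A match is a description and no m6A site.

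Of the members, 9 lay over a microRNA hairpin, among 1005 hairpins in the RefSeq table. The most enriched, at 5.16-fold, overlapped Mir423 in an intron of Nsrp1, a splicing regulator, at chr11:77078064-77078172 on the minus strand. It is shown with the hairpin and then both mature arms, whose seeds (bases 2 to 8) are in capitals.
Mir423 hairpin: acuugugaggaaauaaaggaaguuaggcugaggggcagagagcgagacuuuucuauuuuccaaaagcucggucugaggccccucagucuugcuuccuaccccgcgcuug
mmu-miR-423-5p: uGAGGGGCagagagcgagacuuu
mmu-miR-423-3p: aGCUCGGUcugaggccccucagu
The other 8 were enriched 1.65-fold to 2.92-fold, among them Mir3064 in Ddx5, an RNA helicase of splicing, at 2.90-fold. None of the 9 overlapped a WT peak.

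Most members were shallow. The deposited fold enrichment over input at the summit had a median of 2.64, with a range from the 5th to the 95th percentile of 1.84 to 4.08 and a maximum of 64.9. The median width was 305 bases, and the narrowest peak spanned 298. Values repeated: 1226 members (4.69%) shared the fold of 2.93. D395A exonic peaks were alike in enrichment, with a median of 2.59, whereas the 14473 WT intronic peaks had a median of 5.76 and a median width of 518. The lists were cut differently by the authors: the lowest deposited -log10 p in the D395A list is 1.30, and 2951 members (11.3%) reach a q of 0.05, while every WT peak does. Of D395A exonic peaks, 24.5% reached it.

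The share of introns differed between the lists. Intronic summits made up 67.3% of the D395A list and 29.9% of the WT list, and exonic summits 18.1% and 35.3%. Among the 5275 D395A peaks with q below 0.05, 55.9% were intronic and 32.6% exonic. With 1 D395A list there is no test of this difference, and the number of libraries and the threshold differ along with the genotype, so their parts cannot be told apart.

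**Figure D1:**
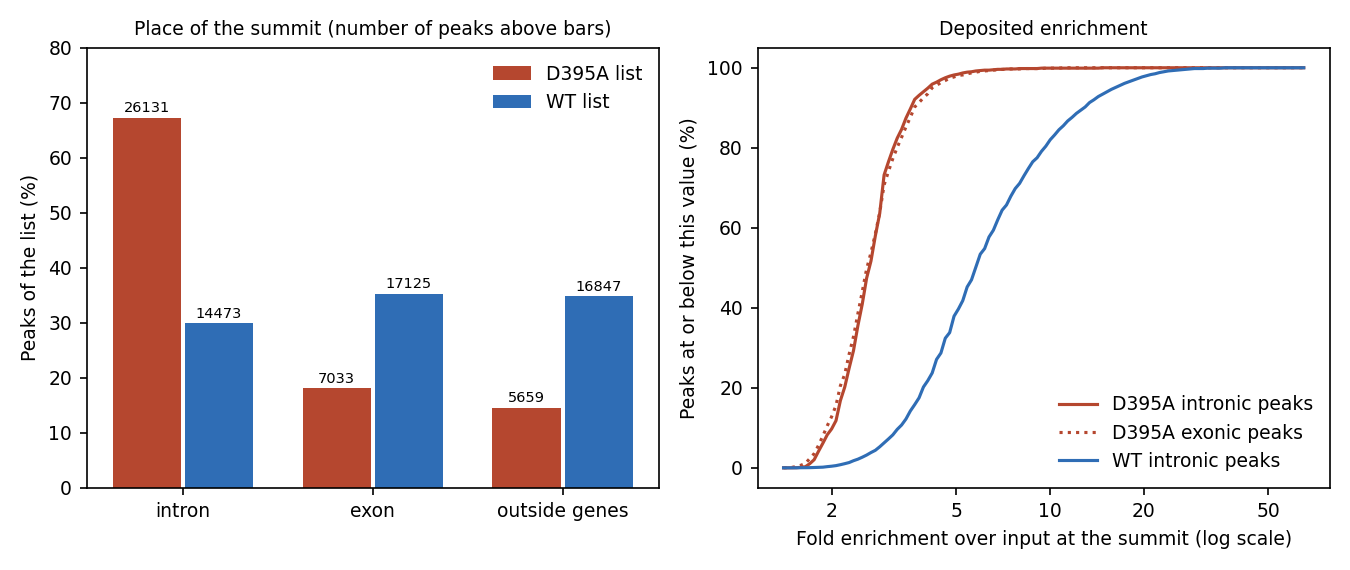
Left, percentage of each mouse peak list with the summit in an intron, in an exon or outside genes (D395A red, WT blue, peak numbers above bars); right, cumulative percentage of peaks against deposited fold enrichment on a log axis. Introns hold 67.3% of D395A peaks and 29.9% of WT peaks, and the D395A intronic and exonic curves run together, left of the WT intronic curve.

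The members lay in 7949 host genes, 25.2% of the 31566 genes with an intron. A single member was held by 3345 hosts (42.1%), 3 or more by 3052 and 10 or more by 560. Of the 7347 hosts found in RefSeq by symbol, 94.6% are protein-coding and 4.61% are long non-coding RNA genes. Hosts were long and expressed: their median intronic length was 37.9 kb against 5.86 kb in the other genes with introns, and their median D395A level was 7.19 RPKM against 0.198 RPKM over all genes with an intron. A D395A exonic peak was also present in 2964 hosts (37.3%). Of the members, 1357 had 2 or more host genes, since genes overlap.

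The density of members followed the RNA level of the gene. D395A introns held 2.58 members per Mb in genes without a D395A count and 2.81 in genes up to 0.1 RPKM. Density ran through 25.1 per Mb at 1 to 2 RPKM and 54.6 per Mb at 5 to 10 RPKM to 80.2 per Mb above 50 RPKM, 28.5 times the density up to 0.1 RPKM. WT intronic peaks ran from 7.48 to 15.4 per Mb over the same ends, a ratio of 2.06, with 19.7 per Mb at 2 to 10 RPKM. Members with q below 0.05 ran from 0.267 to 32.2 per Mb, a ratio of 121.

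**Figure D2:**
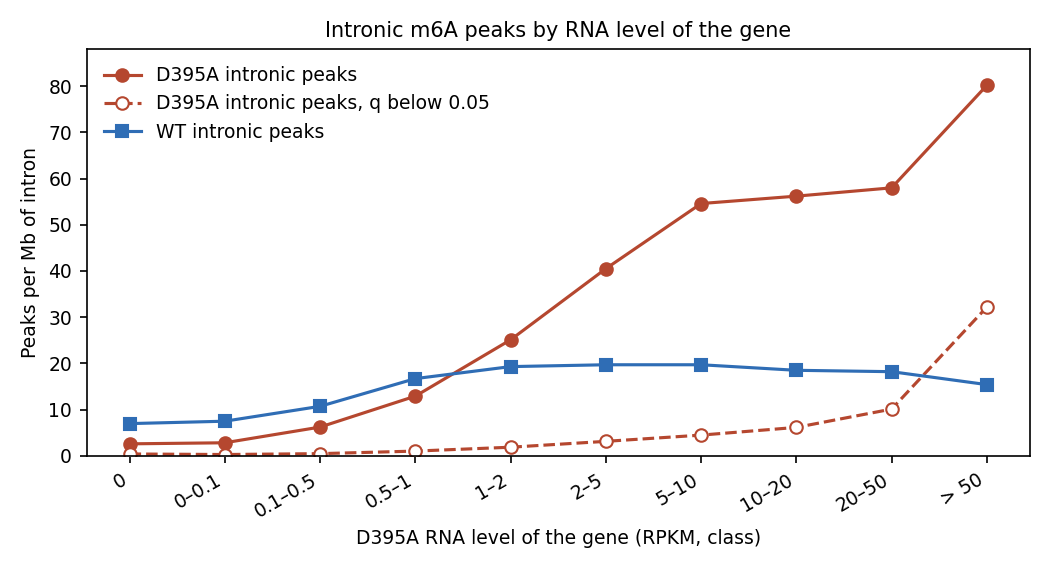
Peaks per Mb of intron (vertical axis) in classes of D395A RNA level in RPKM (horizontal axis) for D395A intronic peaks, those with q below 0.05, and WT intronic peaks. D395A peaks climb from 2.58 to 80.2 per Mb, while WT peaks stay between 6.96 and 19.7 per Mb.

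By order along the gene, introns held members at shares close to their shares of intronic bases. Among 24774 members with a single host, 18.8% lay in the first intron, which holds 17.5% of the intronic bases of these hosts, and 13.3% lay in the second, which holds 12.7%. The last intron held 6.88% of members and 6.61% of bases, against 11.8% of WT intronic peaks and 7.18% of the bases of their hosts. Members lay in 16063 of 101534 introns (15.8%), of which 12007 held a single one. The intron around a member had a median length of 13.8 kb, with 0.899 kb and 133 kb at the 5th and 95th percentiles, and 6.72 kb for members with q below 0.05. The median over all introns of the hosts was 1.61 kb, but the introns above 26.7 kb hold as many bases as those below.

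Among the introns of the hosts of single-host members, density per base was lower in longer introns. Genes without a member are left out of these bases, so a short host has a high density from a single member. Members span at least 298 bases, so those in the shortest introns fill much of the intron or reach past it. Introns up to 0.5 kb held 116 members per Mb, introns of 2 to 5 kb 55.4 per Mb, introns of 20 to 50 kb 42.0 per Mb and introns above 100 kb 16.2 per Mb. In the shortest class 2.76% of introns held a member, and in the class of 50 to 100 kb 63.1% did.

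Summits were frequent just before the downstream exon. Within 100 bases of the exon 3′ of the intron lay 8.03% of summits, and within 100 bases of the exon 5′ of it 2.21%, where either zone holds 1.65% of the intronic bases. For WT intronic peaks these shares were 14.6% and 3.69%, with 1.32% of bases. Peaks are wider than these zones, and 4159 members (15.9%) reached into an exon; those had a median enrichment of 2.84-fold against 2.60-fold in the others. Along the joined introns of a host, members declined from 11.5% in the 5′-most of 10 equal parts to 9.07% in the 3′-most, whereas WT intronic peaks went from 8.51% to 14.4%.

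**Figure D3:**
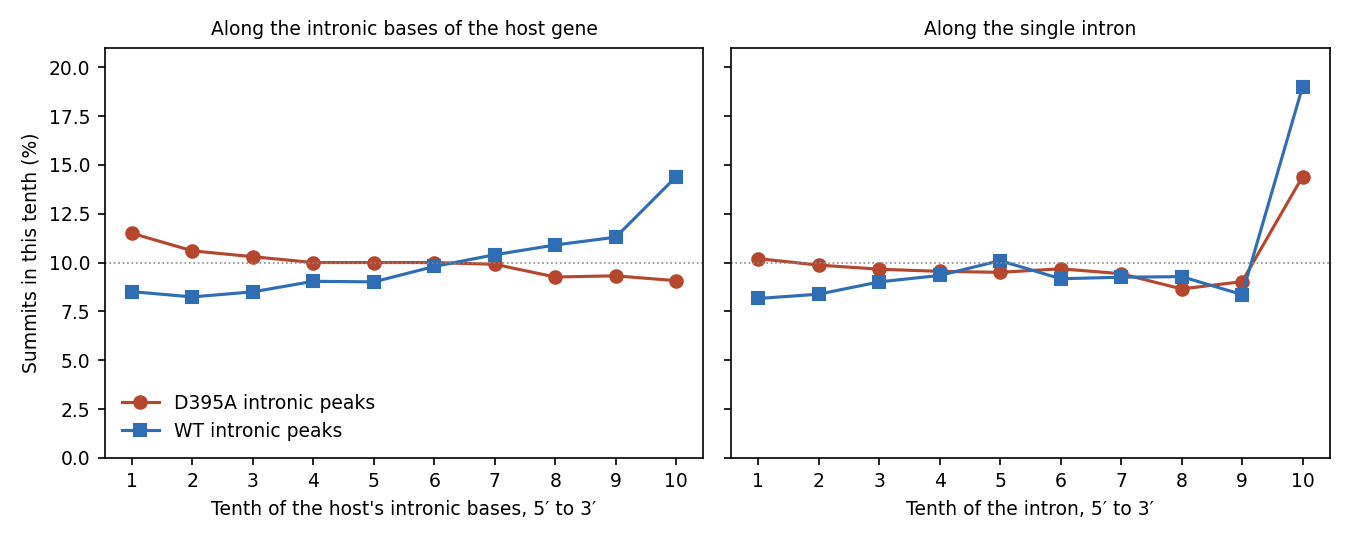
Percentage of summits in 10 equal parts of the host's joined introns (left) and of the single intron (right), from 5′ to 3′, for D395A and WT intronic peaks; the dotted line marks 10%. D395A peaks fall from 11.5% to 9.07% along the host while WT peaks rise from 8.51% to 14.4%, and both are highest in the last part of the intron (14.4% and 19.0%).

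Few members coincided with WT peaks. Of the 26131, 1706 (6.53%, 95% Wilson interval 6.24% to 6.83%, covering counting error only) overlapped a WT peak by 1 base or more, against 29.3% of D395A exonic and 25.7% of D395A intergenic peaks. Among the 2951 members with q below 0.05, the threshold that every WT peak passes, 12% did. WT peaks covered 1.53% of the intronic bases of the hosts, and 5.86% of member summits lay inside one. The overlapped WT peaks were intronic for 1378 members and exonic for 321. Members on a WT peak were slightly stronger, with a median of 2.82-fold against 2.62-fold, and 20.7% against 10.6% had a q below 0.05. At the level of genes, which are far larger than peaks, 3824 hosts (48.1%) also held a WT intronic peak, beside 6635 of all 31566 genes with an intron. Of those 6635 genes, 57.6% held a member, beside 25.2% of all genes with an intron. Hosts have more intron than other genes (a median of 37.9 against 5.86 kb), and the part of length in this sharing was not tested. The overlap was lower in hosts of higher level, from 29.7% of members in hosts up to 0.1 RPKM to 6.93% at 2 to 5 RPKM and 4.66% above 50 RPKM.

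The WT list skips peak numbers, and strong members often lie at the skips. WT peaks are named by number in order of position up to 53814, but 48445 are listed, so 5369 numbers (9.98%) are skipped; the D395A list skips none. A skipped number falls between 8.55% of neighbouring WT peaks. It falls at the place of 12.1% of members up to 2-fold, 18.8% at 4-fold to 6-fold, 47.0% at 6-fold to 10-fold and 25 of the 28 members above 10-fold (89.3%). None of those 28 overlapped a listed WT peak, where a count of 0 allows a share of up to 10.7%. The 7 exonic and 7 intergenic D395A peaks above 10-fold overlapped none either. Absence of a listed WT peak is therefore not shown to be absence of WT enrichment at the strongest members. What was at the skipped numbers is not analysed here. Among members with no skipped number around them, 6.96% overlapped a WT peak, beside 6.53% over all. Only 3 of the members in this set were above 10-fold, so its share says little about the strongest members.

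**Figure D4:**
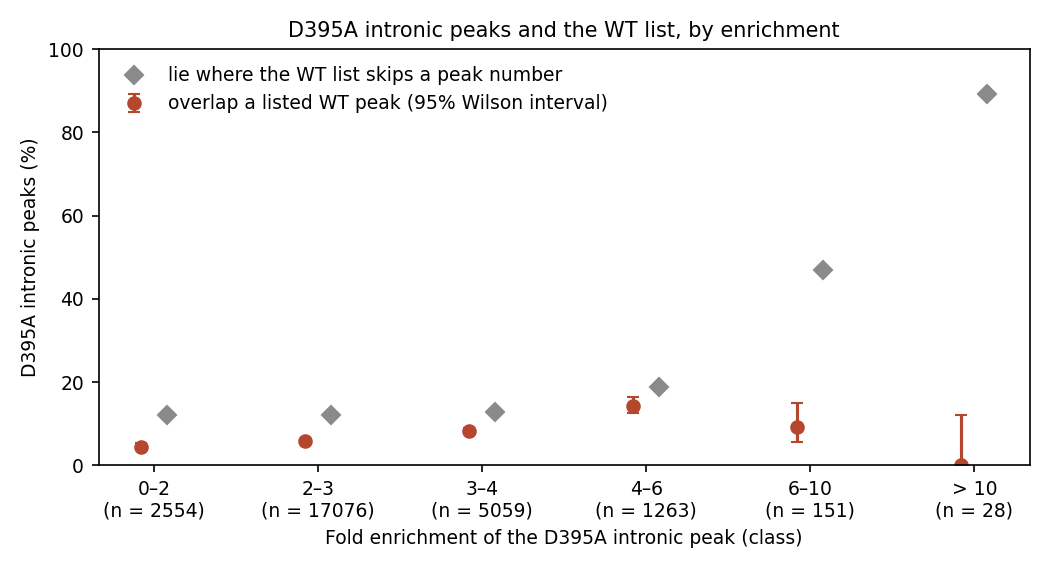
Percentage of D395A intronic peaks (vertical axis) that overlap a listed WT peak (red, with 95% Wilson intervals) or lie between WT peaks whose numbers skip at least 1 (grey), in classes of deposited fold enrichment with the number of peaks in each. Overlap is at most 14.3% and is 0 above 10-fold, while the share at skipped numbers goes from 12.1% to 89.3%.

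The 10 most enriched members with a single host illustrate this. The highest, 64.9-fold, lay in intron 4 of 7 of Ston1, a stonin that binds endocytic adaptors, at chr17:88643057-88644399 (mm10). The next lay in intron 2 of 10 of Ust, which encodes uronyl 2-sulfotransferase of dermatan and chondroitin sulfate, at chr10:8348256-8349487, with 48.0-fold, and in intron 2 of 25 of Aff3, a transcriptional regulator, at chr1:38609921-38611105, with 32.4-fold. Tmprss9, Arnt, Armc8, Dhx8, Btbd9, Lmf1 and Tbc1d16 followed with 27.1-fold to 15.5-fold. Each of these 10 places falls at a skipped WT number: the Ston1 peak lies between WT numbers 22381 and 22383, with a listed WT peak 0.564 kb away. A further member of 35.4-fold lay in introns of both Acsf3 and Gm20388. Ston1 RNA was 26.7 and 24.9 CPM in WT and 51.4 and 56.5 CPM in D395A, without overlap, a log2 fold change of 1.07 ± 0.08 (adjusted p 2.48e-08, edgeR). Ust RNA was 6.57 and 5.85 CPM in WT and 21.4 and 19.8 CPM in D395A, again apart (1.73 ± 0.13, adjusted p 1.6e-08). Aff3, at 4.26 and 5.15 against 44.2 and 48.3 CPM, was apart as well (3.28 ± 0.11, adjusted p 6.45e-12). Tmprss9 was at 0.0747 and 0 CPM in WT and 0.456 and 0.425 CPM in D395A and was too low to be tested.

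The 5 strongest members on a WT peak reached only 8.25-fold. They lay in Sept9, a cytoskeletal septin (8.25-fold, WT peak 5.46-fold), Tmsb4x, the actin-binding thymosin β4 (7.81 and 3.97), Map1b, a microtubule-associated protein (7.27 and 6.29), Vps8, of endosomal tethering (7.02 and 4.55), and Orai2, a calcium channel subunit (6.81 and 6.23). These WT folds come from a list of other libraries and give no change. At Sept9, Map1b and Vps8 the summit was 11.1, 4.72 and 2.31 kb from the nearest exon, and at Tmsb4x 0.05 kb.

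Long genes carried the largest numbers of members. Gpc6, a heparan sulfate proteoglycan of the cell surface, held 73 D395A and 15 WT intronic peaks in 1045 kb of intron. Exoc4, of the exocyst, held 65 and 16, the receptor phosphatase gene Ptprg 61 and 4, the neurodevelopmental gene Auts2 58 and 9, and Lpp, of focal adhesions, 50 and 1. These counts are at unlike thresholds. At a q below 0.05, which every WT peak passes, Gpc6 held 7 D395A peaks, Exoc4 9 and Auts2 3, fewer than in WT. Ptprg held 6 and Lpp 4, more than in WT. Pde4d held 54 D395A intronic peaks, and Magi1 and Tenm4 held 49 each. The peaks of these genes were spread over their introns and low: the 73 in Gpc6 ran from 1.7-fold to 8.05-fold, and 7 had a q below 0.05. The 61 in Ptprg ran from 1.89-fold to 8.17-fold, none of them on a WT peak.

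RNA of these hosts moved both ways. Gpc6 had 7.62 and 8.58 CPM in WT and 38.1 and 42.7 CPM in D395A, so all D395A values lay above (log2 fold change 2.31 ± 0.11, adjusted p 1.13e-10, edgeR). Ptprg had 113 and 112 against 228 and 245 CPM (1.08 ± 0.06, adjusted p 1.68e-09), and Auts2 61.9 and 61.1 against 222 and 261 CPM (1.98 ± 0.08, adjusted p 2.95e-11). Lpp, with 78.7 and 88.6 against 181 and 193 CPM, rose too (1.16 ± 0.07, adjusted p 2.36e-09). Pde4d, a cyclic AMP phosphodiesterase gene, fell from 40.0 and 44.2 to 22.5 and 20.9 CPM (-0.96 ± 0.09, adjusted p 1.39e-07). Exoc4 had 270 and 275 against 296 and 323 CPM (0.18 ± 0.07, adjusted p 0.0257), a call lost without WT replicate 1 (adjusted p 0.253) or WT replicate 2 (0.176).

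**Figure D5:**
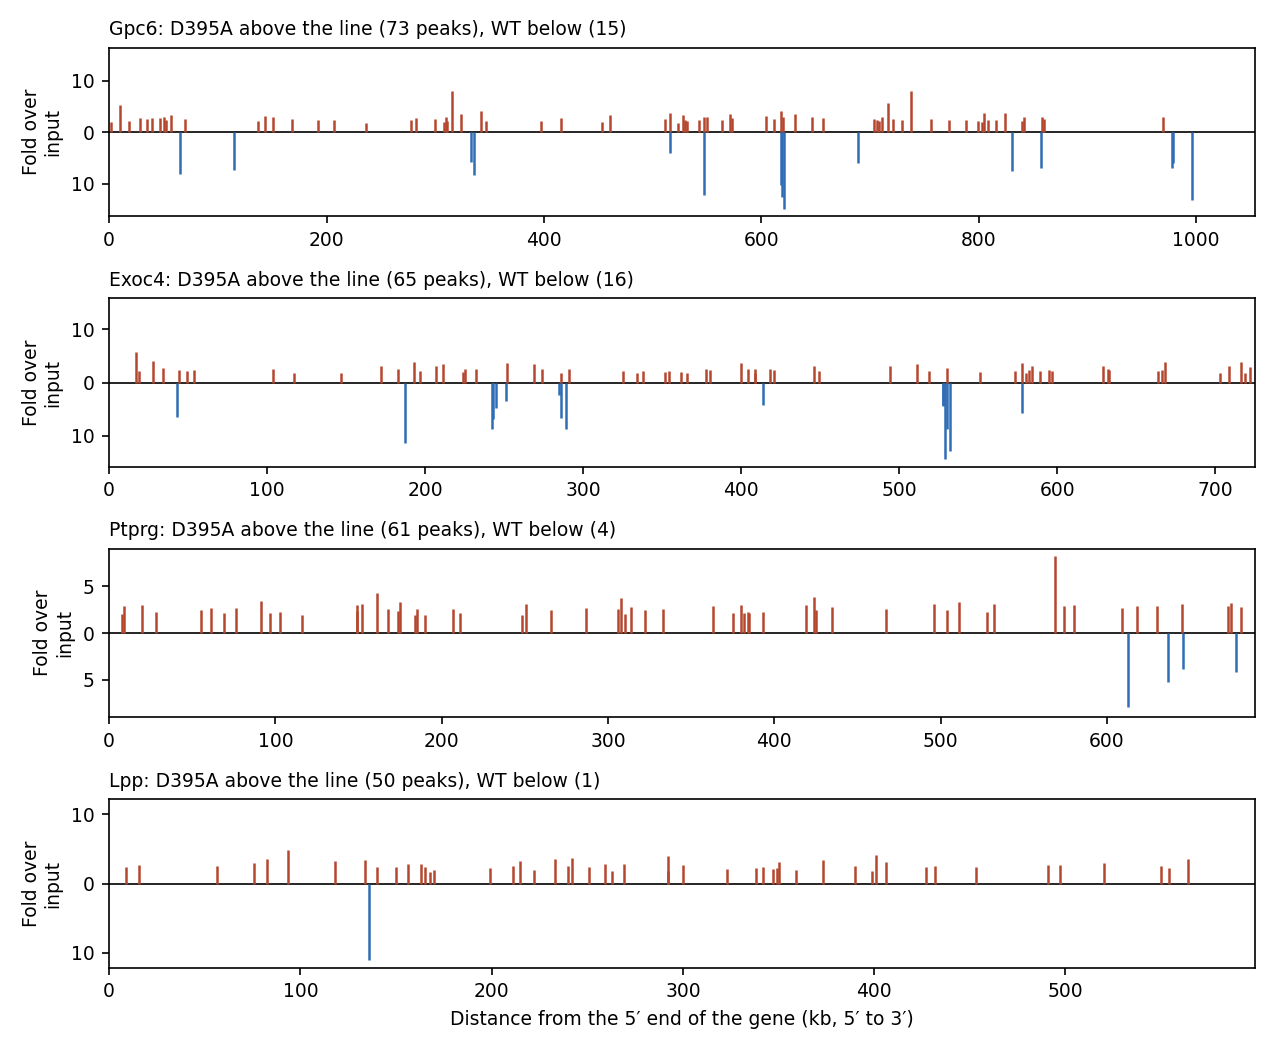
Intronic peaks of Gpc6, Exoc4, Ptprg and Lpp by distance of the summit from the 5′ end of the gene in kb, with the height giving the deposited fold over input, D395A above the line and WT below. Many low D395A peaks lie along each gene (73, 65, 61 and 50), with 15, 16, 4 and 1 WT peaks. Of the D395A peaks, 7, 9, 6 and 4 have a q below 0.05, as all the WT peaks do.

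Some hosts with many members owe them to the gene models of the count table. Gm20388 counted 79 members, in a model with an intron of 4384 kb, and had no RNA count in any library. Fgfr2 counted 62 members and Chd1 48, but 2 and 8 of these lay inside the RefSeq span of the gene. Over all members whose host is in RefSeq, 98.5% lay inside such a span, and all members of Gpc6, Exoc4, Ptprg, Auts2, Lpp, Magi1 and Tenm4 did. The longest introns with a member belonged to the models of Gm20388, Fgfr2, Chd1, Gm37240 and Gpc5 (4384 to 736 kb). The introns with the most members were intron 4 of Immp2l, a mitochondrial peptidase (33 in 518 kb), intron 36 of the Chd1 model (26), intron 4 of Rora and intron 2 of Ptprg (25 each, in 531 and 231 kb), and intron 1 of Grip1 (24 in 365 kb).

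The 8 hosts with the highest D395A level were Eef1a1 (1474 RPKM), Actb (625), Rpl4 (546), Rpl8 (505), Mif (454), Rpl32 (450), Hsp90aa1 (389) and Npm1 (365), which encode translation, cytoskeletal, cytokine, chaperone and nucleolar proteins. These 8 held 1 to 4 members each, in at most 8.26 kb of intron, and no WT intronic peak. In Npm1, all 4 members had a q below 0.05, with 2.63-fold to 3.30-fold.

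In RNA-seq, hosts changed in both directions. Of 7171 hosts tested, 2512 (35.0%) rose and 2871 (40.0%) fell in D395A at an adjusted p of 0.05 (edgeR quasi-likelihood test), beside 36.8% and 34.3% of all 17778 genes tested. The median log2 fold change was -0.05 in hosts and 0.00 over all genes. Hosts differ from other genes in level: their median was 46.0 CPM against 16.6 CPM. Among genes without exonic overlap on the opposite strand, 34.1% of hosts rose and 41.4% fell, beside 32.3% and 37.1% of all 12377 such genes. Among those of at least 10 CPM, 32.4% of hosts rose and 45.0% fell, beside 34.1% and 42.0% of all 7049. Hosts with 10 or more members rose in 42.0% and fell in 40.5%.

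The largest falls among hosts with 3 or more members were in Myof, a membrane-repair ferlin, Rnf17, a germ-cell Tudor protein, Cemip, which acts in hyaluronan breakdown, Jam2, a junctional adhesion molecule, and the non-coding Platr16. Myof had 323 and 331 CPM in WT against 15.7 and 17.4 CPM in D395A (-4.30 ± 0.08, adjusted p 3.31e-14, edgeR), and held 6 members. Jam2 had 587 and 594 CPM against 42.1 and 46.0 CPM (-3.74 ± 0.08, adjusted p 5.84e-14), with 3 members. In both genes the genotypes did not overlap. The largest rises were from 0 counts in both WT libraries, in Gm26733, Gm26694, Gm11906, Gm29017 and Il12rb2, an interleukin-12 receptor subunit. Against a floor of 3 counts per library they were at least 51.3-fold, 20.1-fold, 15.8-fold, 15.2-fold and 14.8-fold higher. Between 12.3% and 97.9% of their exonic bases are shared with a gene on the opposite strand, and as the labels do not give the strand used in counting, their reads cannot be told from those of the partner.

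Counts of changed hosts in each gene list are to be read beside 36.8% of all genes tested that rose and 34.3% that fell, and beside 35.0% and 40.0% of all hosts. Among genes that write m6A, 12 were in the table. Of these, 8 were hosts, with 14 members: Virma and Zc3h13, subunits of the writer complex, had 3 each, its adaptor Wtap 2 and Mettl14 1, while Mettl3 had none. Members stood at 53.5 per Mb in these genes and WT intronic peaks at 49.7. The D395A list was cut at a looser threshold, so densities of the 2 lists, here and in the gene lists below, are not alike. Of the 14 members, 2 had a q below 0.05, as did all 13 WT intronic peaks of these genes. Of the 8 hosts, 2 rose (Virma and Wtap) and 3 fell in RNA; Wtap did not pass without WT replicate 1 (adjusted p 0.116, edgeR) or WT replicate 2 (0.218). Of 12 readers and erasers, 10 were hosts with 60 members (4 rose and 2 fell), of which the demethylase gene Fto held 29 in 342 kb, at 1.89-fold to 3.90-fold. Fto RNA was 146 and 151 CPM in WT and 152 and 171 CPM in D395A (0.12 ± 0.07, adjusted p 0.127, edgeR; without D395A replicate 1, 0.23 and adjusted p 8.79e-05). The reader gene Ythdf2, with 1 member, rose from 164 and 169 CPM to 331 and 347 CPM (1.03 ± 0.06, adjusted p 3.33e-09). The nuclear reader Ythdc1 held none.

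Of 22 genes that write, read or remove H3K9 methylation, 17 were hosts with 60 members, 1 of them on a WT peak, and 5 of the 17 rose and 9 fell, beside 36.8% and 34.3% of all genes tested and 35.0% and 40.0% of all hosts. Without WT replicate 1, 6 of the 17 fell. The demethylase genes Kdm3a and Kdm3b held 3 each, enriched 2.84-fold to 4.74-fold and 2.36-fold to 4.29-fold. Kdm3a fell from 324 and 324 CPM to 163 and 170 CPM (-0.96 ± 0.06, adjusted p 5.53e-09, edgeR), and Kdm3b from 424 and 426 CPM to 276 and 291 CPM (-0.58 ± 0.07, adjusted p 1.93e-06), without overlap in either gene. Of the Kdm3b exonic bases, 24.6% are shared with a gene on the opposite strand. The methyltransferase gene Suv39h1, with 1 member, rose from 29.3 and 28.4 CPM to 89.9 and 96.5 CPM (1.7 ± 0.07, adjusted p 6.73e-11).

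Of 24 naive pluripotency genes, 15 were hosts with 61 members at 82.7 per Mb, where WT intronic peaks stood at 5.42 per Mb. Of the 61 members, 11 had a q below 0.05, as did all 4 WT intronic peaks. The median D395A level of the list was 48.6 RPKM. All genes of 20 to 50 RPKM held 58.0 members per Mb and those above 50 RPKM 80.2 per Mb. Of the 15, 13 fell, beside 34.3% of all genes tested and 40.0% of all hosts, and the median log2 fold change was -0.71, beside 0.00 over all genes. Sall4 and Il6st did not pass (0.08 and 0.11, adjusted p 0.343 and 0.165, edgeR), and without D395A replicate 1 both rose (0.18 and 0.22, adjusted p 0.000356 and 5.92e-05). Jarid2, a Polycomb cofactor, held 21 members, and the transcription factor genes Esrrb and Nr5a2 8 each. Esrrb fell from 1006 and 926 CPM to 526 and 555 CPM (-0.84 ± 0.08, adjusted p 1.8e-07, edgeR), and its members ran from 1.75-fold to 3.41-fold. Zfp42, the marker Rex1, held 3 members, all with q below 0.05, and fell from 498 and 500 CPM to 204 and 202 CPM (-1.30 ± 0.07, adjusted p 3.43e-10). The single-member host Tcl1 fell from 122 and 124 CPM to 4.41 and 4.52 CPM (-4.78 ± 0.09, adjusted p 3.31e-14).

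Splicing factor genes were the densest of the lists, with 91 members in 22 of 25 genes at 105 per Mb, against 11.6 WT peaks per Mb. Of the 91 members, 21 had a q below 0.05, as did all 10 WT intronic peaks. The median D395A level of these genes was 41.1 RPKM, and some, such as Srrm2 at 116 RPKM, lay above 50 RPKM. All genes of 20 to 50 RPKM held 58.0 members per Mb and those above 50 RPKM 80.2 per Mb. The parts of RNA level and intron length in the density of this list were not tested. Of these 22 hosts, 4 rose and 15 fell, beside 36.8% and 34.3% of all genes tested and 35.0% and 40.0% of all hosts, with a median log2 fold change of -0.25. Without WT replicate 1, 11 fell, and without WT replicate 2 likewise 11. Rbfox2 held 16, Mbnl2 13 and Ptbp2 11; Ptbp2 rose from 56.6 and 62.7 CPM to 80.9 and 77.7 CPM (0.41 ± 0.07, adjusted p 0.000136, edgeR). Polycomb and DNA methylation genes held 89 members in 19 of 20 genes, of which 6 rose and 10 fell. Chromatin remodellers held 162 in 19 of 20, with 8 up and 8 down, and 48 of the members lay in the Chd1 model. Long non-coding RNA genes held 45 in 9 of 17, with 4 up and 4 down. Arid1b, a subunit of the BAF remodeller, held 19 and rose from 117 and 115 CPM to 292 and 328 CPM (1.42 ± 0.07, adjusted p 2.86e-10).

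The 28 very long genes of neurons and adhesion span 38091 kb of intron at a median of 0.156 RPKM. They held 294 members, 7.72 per Mb, with 6.20 WT peaks per Mb. Of the 294 members, 28 had a q below 0.05, as did all 236 WT intronic peaks. Of 16 hosts tested, 9 rose and 5 fell. Most of the 294 lay in genes of the list with higher RNA levels: Auts2 held 58 at 10.5 RPKM in D395A, Tenm4 49 at 5.86 RPKM, Wwox 47 at 1.59 RPKM and Immp2l 45 at 3.26 RPKM. Other genes at such levels held fewer: Dmd 11 in 2233 kb at 4.82 RPKM and Cntnap2 24 in 2235 kb at 1.84 RPKM. The neuronal Csmd1 held 1 in 1624 kb. The long genes of wide expression, at a median of 6.79 RPKM, held 453 members at 42.5 per Mb (10 hosts rose, 5 without WT replicate 1, and 7 fell), led by Exoc4 with 65, the polarity gene Pard3 with 46 and Vps13b with 37. Genes of FGF, Wnt and Nodal signalling held 150 members in 18 of 24 genes (9 rose and 5 fell), 62 of them in the Fgfr2 model.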

How the data were processed

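The deposited files used were the WT and D395A mouse m6A peak lists and the RNA-seq count table. The members and gene lists were chosen with earlier results of these data known. Per the submitters' processing notes, the authors used tools that include HISAT2 2.1.0, MACS2 2.1.1, featureCounts 1.6.3 and edgeR 3.22.5 and the build mm10, without roles. The authors deposited raw counts per gene with exon coordinates; the labels do not give the strand setting, and 1 column name that differs from D395A in 1 character was taken as D395A replicate 1. The peak lists are in narrowPeak layout, with fold enrichment (a ratio), -log10 p and -log10 q per peak as deposited by the authors and used as such; 2 further WT columns were not used. Both lists carry a deposited integer score, equal to 10 times the -log10 q in WT and 10 times the -log10 p in D395A, not used.

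Exons were merged per gene, and introns are the gaps. Intron order, length and position use members with 1 host gene. Peaks were joined by 1 base or more, checked against bedtools 2.31.1. Counts were fitted over all genes in edgeR 4.0.16 (filterByExpr, TMM, quasi-likelihood, Benjamini-Hochberg over 17778 of 52459 genes). The fit was also run on simulated counts with 200 changed genes. That is far fewer than were called here, so the run does not check the scaling under such wide change. RPKM is TMM-scaled CPM per kb of merged exon. RefSeq tables (GRCm38.p6, the same assembly as mm10) gave symbols, spans and sequences. Peaks of 1 list are not replicates, so peak measures carry no test.

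Named were the 10 hosts with the most members, the 10 most enriched members, the 8 highest-level hosts, the 5 largest rises and falls among hosts with 3 or more members and at least 1 CPM, the 5 longest and 5 fullest introns, the 5 strongest members on and off WT peaks, and list members; the text gives a part. Sequences of these peaks were not used here; those printed were chosen after values were seen. Alternatives were DESeq2 1.42.0, other scalings and filters, a replicate block, libraries left out, and other peak thresholds and rules. The 34 chromatin immunoprecipitation samples and the human cells were not analysed here.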

Additional observations from a re-analysis of the deposited data

How the results depend on the processing

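Limits: the members rest on 1 immunoprecipitated library at a loose threshold, the number of reads behind a peak is unknown, and WT overlap depends on a list with skipped numbers. With q below 0.05, 2951 members in 2129 hosts passed, 12% on a WT peak, with a median of 3.98-fold and introns of 6.72 kb. Their host level was 11.9 RPKM and the ratio of densities 121. Of 2008 such hosts tested, 612 (30.5%) rose and 898 (44.7%) fell, beside 36.8% and 34.3% of all genes tested. These hosts had a median of 85.3 CPM, against 16.6 CPM over all genes tested. Members at or above the median -log10 p of the list numbered 12417, with 8.5% on a WT peak, 3.03-fold, 12 kb and 8.02 RPKM. Members wholly outside exons gave 5.73% on a WT peak, 2.60-fold, 19.3% in the first intron, 18.5 kb and 6.70 RPKM. Peak midpoints gave 7.05% and 13.2 kb. Overlap was 5.71% when 50% of the peak had to be covered, 4.39% with WT peaks at or above their median, and, chosen after seeing the data, 6.96% away from skipped numbers and 6.17% inside RefSeq spans, where 18.2% lay in the first intron. Assigning each member to its shortest host gave 19.7% in the first intron. The median host level with a D395A library left out was 7.10 to 7.28 RPKM. Counts of hosts that rose stayed between 2202 and 2692, and of those that fell between 2452 and 2920, with a library left out (the spread then comes from the other genotype alone). With the replicate block, 2535 hosts rose and 2905 fell, beside 37.4% and 35.1% of all genes tested. Deviations of same-numbered libraries correlated at 0.0337 over 17778 genes, which cannot show whether such libraries share a culture or a run. Replicate 1 had fewer counts than replicate 2 in both genotypes (13953069 against 19246342 in WT, 12743677 against 18151353 in D395A). The DESeq2 Wald test gave 2139 hosts that rose and 2283 that fell, beside 24.8% and 19.8% of all 22244 genes it tested. Among 212 named genes tested, leaving out WT replicate 1 lost 22 calls and WT replicate 2 lost 15, including Exoc4 (0.16 and 0.19, adjusted p 0.253 and 0.176, edgeR). Rpl32 reversed without D395A replicate 1 (-0.12, adjusted p 0.0222) and stood at 0.24 without D395A replicate 2 (0.05 with all libraries); the cause was not tested.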

Other observations

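Members were dense in a few hosts of moderate length that no rule above named, chosen here after their values were seen among hosts with 10 or more members. Erdr1, on a sex-chromosome region of repeated sequence, held 18 in 30.6 kb of intron, 5.88 per 10 kb, of which 16 had a q below 0.05, and no WT intronic peak. Pnpt1, which encodes the mitochondrial polynucleotide phosphorylase, held 12 in 27.6 kb and no WT intronic peak, and its RNA was 92.5 and 97.7 CPM in WT and 314 and 289 CPM in D395A (log2 fold change 1.66 ± 0.07, adjusted p 3.74e-11, edgeR). Fn1, fibronectin, held 14 in 56.0 kb, 13 of them with q below 0.05, at 2740 and 2750 CPM in WT and 1302 and 1509 CPM in D395A. Kat6b, a histone acetyltransferase gene, held 35 members and 2 WT intronic peaks and fell from 908 and 903 CPM to 424 and 459 CPM (-1.04 ± 0.07, adjusted p 1.25e-08, edgeR).

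Of the hosts, 175 had no count in either D395A library. They were the only hosts of 132 members, of which 50 (37.9%) overlapped a WT peak, against 6.53% of all members; this difference was not tested. Per chromosome, members were spread at 19.3 per Mb of intron on X to 29.8 per Mb on chromosome 11, with 4.98 per Mb on Y. Chromosome Y held 30 members, and Erdr1, which is placed there, held 18.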
